A study of Mus musculus with 18 samples.

Results

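The 36 genes described here mark regions of the mouse brain and were followed through bulk RNA sequencing of the frontal cortex. They were taken from the 55487 genes of the deposited count table by their symbols, and each of the 36 symbols was found. They comprise 9 markers of the striatum, 5 of the olfactory bulb, 7 of the choroid plexus, 3 of the thalamus, 8 of the cerebellum, 2 of the dentate gyrus and 2 of the pallium, the part of the forebrain that gives rise to the cortex. The purpose of following them was to describe how much RNA of neighboring or distant regions each library held, by genotype and by mouse.

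The study asked how the loss of farnesyltransferase (FT) in forebrain neurons alters the cortex of a mouse model of Alzheimer's disease. It used 18 mice of 9 to 10 months in 3 genotypes, each with 3 females and 3 males. APP/PS1 mice carry the transgenes of this model, are homozygous for a floxed allele of the FT β-subunit gene (FT f/f) and lack Cre, so their FT gene is intact. APP/PS1/FTnKO mice carry the same transgenes and the same floxed alleles together with a Cre recombinase driven by the CamKIIα promoter, which deletes the gene in forebrain neurons after birth and leaves glia and other cells with it. WT mice are described in the study's methods as littermates with the floxed alleles and with neither transgene nor Cre, while the record of the data names them C57BL/6J, so that their background is not settled. The label of the tissue was frontal cortex for each library, the mice had been perfused, and how far the cut reached into the striatum, the olfactory bulb or the ventricle is not stated.

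The frontal cortex of the mouse lies in front of and above the striatum, close behind the olfactory bulb and next to the lateral ventricle, which holds choroid plexus. Medium spiny neurons make up most of the striatum and use dopamine receptors, an adenosine receptor and the peptides enkephalin, dynorphin and substance P. Mitral, tufted and periglomerular cells belong to the olfactory bulb, epithelial cells of the choroid plexus secrete cerebrospinal fluid, and granule and Purkinje cells form the cerebellar cortex. A marker is seldom exclusive: Penk, Calb1, Ntng1, Enpp2 and Prox1, for example, are also expressed by cells of the cortex itself, so that a level above 0 is not in itself RNA of another region. In bulk tissue, fewer cells of a type and less RNA per cell cannot be told apart.

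The total count of the WT libraries was 16452173 to 20602274, that of APP/PS1 libraries 15925432 to 20703587, and that of APP/PS1/FTnKO libraries 16479413 to 21030935. RNA integrity numbers (RIN) were 8.5 to 8.8, 7.7 to 8.7 and 7.6 to 8.7. Levels are given as CPM, the count of a gene as a share of the library's total, scaled by TMM factors, and a floor of 3 counts corresponds to 0.141 to 0.187 CPM in these libraries. WT mouse 19622, a female, stood apart from the other 17 mice in these markers and is described separately. Groups therefore hold 5 WT, 6 APP/PS1 and 6 APP/PS1/FTnKO mice unless all 18 are named. For 10 of the 36 genes the annotated exons overlap those of another gene, namely Ppp1r1b, Penk, Doc2g, Eomes, Otx2, Enpp2, Pcp2, Zic1, Neurod1 and Prox1, and no source names the strand setting used in counting, so that reads of such neighbors may be split or shared.

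Promoter windows are shown to give the genomic context of the markers that describe each region. RefSeq promoter windows (GRCm38.p6, 250 bases before to 50 bases after the start, 300 in all) were at hand for 25 of the 36 genes, 17 of them with a single window. A window is printed for 1 gene of each of 5 regions, chosen after the values were seen, 5′ to 3′ on the strand of the gene, with the E-box CAGATG or CAGCTG (bound by NeuroD factors) and the OTX2 motif TAATCC in capitals where present on either strand.
Drd2 (chr9:49340153-49340452, plus strand): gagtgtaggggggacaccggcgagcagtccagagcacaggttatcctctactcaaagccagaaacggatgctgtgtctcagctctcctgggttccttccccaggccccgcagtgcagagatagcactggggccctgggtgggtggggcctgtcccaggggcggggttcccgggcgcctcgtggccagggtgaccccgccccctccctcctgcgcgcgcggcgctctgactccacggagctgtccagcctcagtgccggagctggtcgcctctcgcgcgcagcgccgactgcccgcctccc
S100a5 (chr3:90608272-90608571, plus strand): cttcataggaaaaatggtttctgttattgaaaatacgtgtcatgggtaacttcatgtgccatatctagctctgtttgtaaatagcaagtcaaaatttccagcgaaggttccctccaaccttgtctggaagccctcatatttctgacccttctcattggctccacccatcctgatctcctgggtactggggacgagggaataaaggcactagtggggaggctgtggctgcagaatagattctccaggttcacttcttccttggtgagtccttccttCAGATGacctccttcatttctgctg
Kl (chr5:150952357-150952656, plus strand): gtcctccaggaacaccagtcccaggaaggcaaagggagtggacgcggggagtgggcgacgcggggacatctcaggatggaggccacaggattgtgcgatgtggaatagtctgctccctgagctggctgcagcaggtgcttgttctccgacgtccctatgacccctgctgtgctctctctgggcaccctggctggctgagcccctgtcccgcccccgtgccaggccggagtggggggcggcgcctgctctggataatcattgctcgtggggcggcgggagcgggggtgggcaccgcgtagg
Gabra6 (chr11:42321023-42321322, minus strand): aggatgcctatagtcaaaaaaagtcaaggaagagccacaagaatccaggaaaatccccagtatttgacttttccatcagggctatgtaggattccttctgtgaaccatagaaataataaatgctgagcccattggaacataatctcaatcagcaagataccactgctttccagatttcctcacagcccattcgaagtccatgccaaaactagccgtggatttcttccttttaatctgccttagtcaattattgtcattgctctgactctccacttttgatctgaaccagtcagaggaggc
Neurod6 (chr6:55681214-55681513, minus strand): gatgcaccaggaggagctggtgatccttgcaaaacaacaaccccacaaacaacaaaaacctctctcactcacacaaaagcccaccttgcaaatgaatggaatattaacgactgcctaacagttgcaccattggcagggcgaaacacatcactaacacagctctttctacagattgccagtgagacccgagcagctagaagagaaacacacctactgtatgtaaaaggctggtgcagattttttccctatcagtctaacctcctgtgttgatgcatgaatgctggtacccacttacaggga
In the GRCm38 annotation Drd2 spans chr9:49340627-49408177, S100a5 chr3:90608523-90611780, Kl chr5:150952607-150993817, Gabra6 chr11:42306437-42321072 and Neurod6 chr6:55677822-55681263. The RefSeq window of Drd2 ends before this annotated start, so that the 2 sources place its start differently. The windows of Drd2 and Kl were rich in G and C (70.3% and 67.3%, with 23 and 19 CG pairs), while those of S100a5, Gabra6 and Neurod6 had 46.3%, 42.0% and 46.3% and 3, 2 and 3 CG pairs. The median over all 32851 windows of this length was 52.7% and 7 CG pairs, and over the 37 windows of the 25 genes 57.0% and 11. Of these 5 windows only that of S100a5 held a searched motif, CAGATG. Among the 37 windows, CAGATG was in 24.3% (17.2% of all windows), CAGCTG in 10.8% (16.3%) and TAATCC in 5.41% (7.06%), which are matches of letters and not binding sites.

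**Figure D1:**
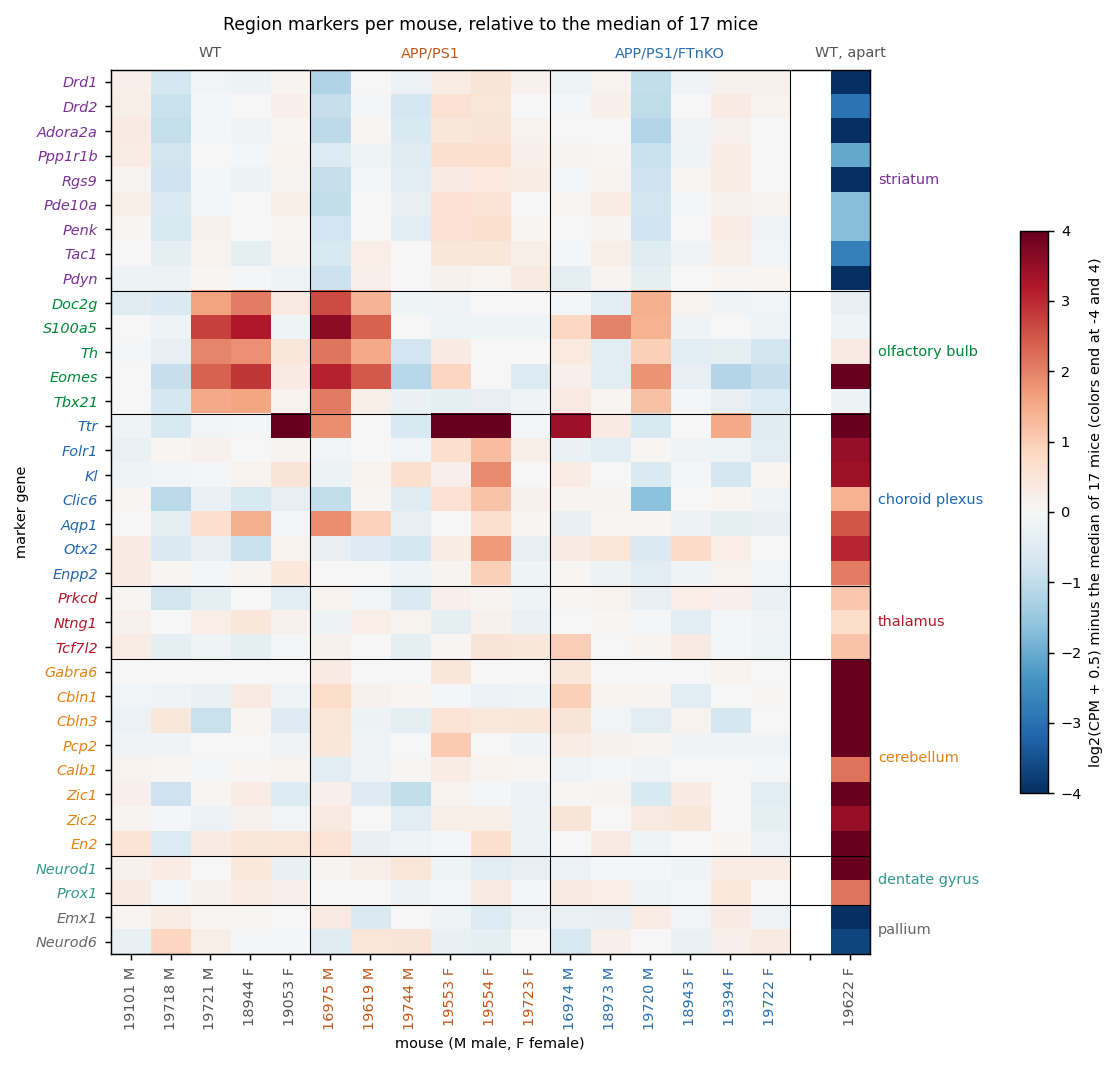
Levels of the 36 marker genes (rows, by region) in each mouse (columns, by genotype and sex), as log2(CPM + 0.5) minus the median of 17 mice, with WT mouse 19622 in a column of its own. The striatal rows move as a block across mice, the olfactory bulb rows are high in 16975, 18944 and 19721, and 19622 lies below all other mice for 11 genes and above them for 21.

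The striatal markers were present in each of the 17 mice and moved together from mouse to mouse, while the genotypes overlapped. Drd1, the D1 dopamine receptor of direct-pathway neurons, had 46.5 to 88.5 CPM (median 70.9) in WT mice, 32.8 to 111 (median 81.4) in APP/PS1 mice and 38.7 to 86.2 (median 77.0) in APP/PS1/FTnKO mice. Drd2, the D2 receptor of indirect-pathway neurons, had 33.6 to 74.3 CPM (median 62.9), 33.2 to 95.7 (median 62.0) and 30.8 to 79.0 (median 65.8) in the same order. In both genes the 3 genotypes overlapped, and the lowest mouse of each genotype was a male. Adora2a, the adenosine receptor that indirect-pathway neurons also carry, had medians of 75.0, 85.8 and 79.1 CPM in the same order and a full range of 35.1 to 115.

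Signaling proteins and peptides of the same neurons followed. Ppp1r1b, which encodes the dopamine-regulated phosphatase inhibitor DARPP-32, had medians of 408, 417 and 419 CPM in WT, APP/PS1 and APP/PS1/FTnKO mice, with a full range of 222 to 645. Pde10a, a phosphodiesterase that breaks down cyclic nucleotides, had medians of 407, 413 and 436 CPM, and Rgs9, a regulator of G protein signaling, 168, 192 and 182. These medians differed far less between genotypes than single mice did, whose levels spanned 2.91-fold, 2.98-fold and 2.48-fold. Penk, the enkephalin precursor of indirect-pathway neurons, ranged from 201 to 551 CPM, and the direct-pathway precursors Tac1 (substance P) and Pdyn (dynorphin) ranged from 48.2 to 103 and from 41.5 to 97.9. Pdyn varied least among the 9 genes, with a coefficient of variation of 18% over 17 mice against 30.5% for Adora2a. Per kilobase of exon, Penk (median 215 CPM per kb) and Ppp1r1b (140) were the most abundant and Drd1 (21.1) and Tac1 (21.8) the least.

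The same few mice carried the extremes. The APP/PS1 females 19553 and 19554 were both among the highest 2 of 17 for 8 of the 9 genes. The APP/PS1 male 16975 and the APP/PS1/FTnKO male 19720 were each among the lowest 3 for 9 of 9 genes, and the WT male 19718 for 8 of 9. In sum, the 9 genes made up 983 CPM in 16975 and 2530 CPM in 19554. Across the 17 mice the log2 CPM of Drd1 and Drd2, which mark different neurons, were correlated with Pearson's r = 0.927 and Spearman's rho = 0.917 (permutation test with 100000 resamples, each p = 1e-05, the smallest it can give, adjusted p = 6e-05 over 6 gene pairs). Without 16975 and 19720, the mice farthest from the median of Drd1, r was 0.895, and within APP/PS1 and within APP/PS1/FTnKO mice (n = 6 each) it was 0.890 and 0.985 (exact permutation p = 0.0042 for each). Drd1 and the pallial gene Neurod6 had r = -0.0607 and rho = -0.164 over the same mice (permutation p = 0.82 and 0.53). Without 16975 and 19720 r was -0.505 and rho -0.457 (permutation p = 0.053 and 0.088), so that this value rested on these 2 mice, and r was 0.132 within APP/PS1 and 0.320 within APP/PS1/FTnKO mice.

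**Figure D2:**
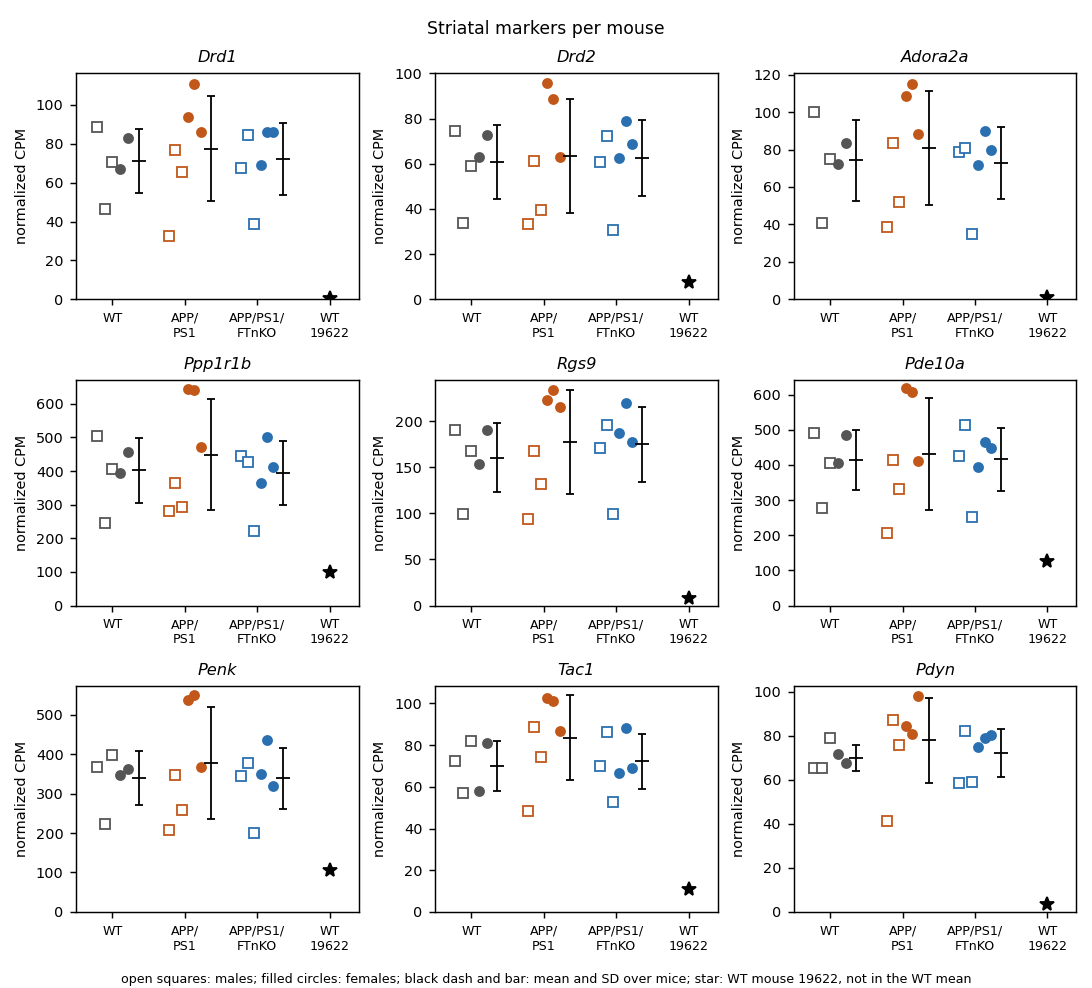
Normalized CPM of the 9 striatal markers in each mouse by genotype, with open squares for males, filled circles for females, the mean and SD over mice beside them, and a star for WT mouse 19622. The 3 genotypes overlap for each gene, at least 1 male of each genotype lies low for most of them, and 19622 lies below all other mice, at 0.491 CPM for Drd1.

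Olfactory bulb markers were low in most mice and stood out in a few, with S100a5, Tbx21 and Eomes near the floor in many mice and Doc2g and Th above it in each. Doc2g, a C2-domain protein gene of mitral and tufted cells, had 1.79 to 13.6 CPM (median 3.89) in WT mice, 2.52 to 20.5 (median 2.95) in APP/PS1 mice and 1.996 to 8.57 (median 2.70) in APP/PS1/FTnKO mice. Eomes, a T-box transcription factor of the same cells, had 0.149 to 8.35 CPM (median 1.06), 0.0586 to 9.99 (median 1.24) and 0.0471 to 3.80 (median 0.441). The high values belonged to the same mice in both genes, and each genotype had at least 1 of them.

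The APP/PS1 male 16975 was the highest of 17 mice for 5 of 5 olfactory bulb markers, and the WT mice 18944 and 19721 were among the highest 5 for each. In 16975 Th, tyrosine hydroxylase of dopaminergic periglomerular cells, reached 23.8 CPM, and in 19721 and 18944 it reached 20.7 and 18.9, against a median of 4.997 over the 17 mice. The APP/PS1 male 19619 followed with 15.1 CPM of Th and 6.20 of Eomes, and the APP/PS1/FTnKO male 19720 with 10.1 and 3.80. S100a5, a calcium-binding protein gene of the olfactory sensory neurons whose axons end in the bulb, had 0 counts in 7 of the 17 mice and 6.24, 4.68, 3.25 and 2.37 CPM in 16975, 18944, 19721 and 19619. Tbx21, the T-box factor T-bet, had 2.87 CPM in 16975, 1.89 in 18944, 1.81 in 19721, 1.32 in 19720 and at most 0.542 in the others. Doc2g and S100a5 were correlated over the 17 mice with r = 0.849 (permutation p = 9e-05, adjusted p = 0.00027) and rho = 0.483 (p = 0.052, adjusted p = 0.09). Without 16975 and 18944 r was 0.694 (adjusted permutation p = 0.021) and rho 0.233, and on deviations from the genotype means r was 0.852 and rho 0.809 (adjusted permutation p = 0.00018 and 0.0006). Within APP/PS1 mice r was 0.988 and rho 0.577 (exact permutation p = 0.033 and 0.25, adjusted p = 0.067 and 0.38, neither below 0.05), and within APP/PS1/FTnKO mice r was 0.171 and rho -0.203 (exact permutation p = 0.85 and 0.7, adjusted p = 0.85 and 0.8).

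Choroid plexus markers were high in single mice, Ttr most of all, with a coefficient of variation of 336%. Ttr, the thyroxine carrier transthyretin and the most abundant transcript of the choroid epithelium, had 422 CPM in the APP/PS1 female 19554, 61.4 in the WT female 19053, 19.4 in the APP/PS1 female 19553 and 7.77 in the APP/PS1/FTnKO male 16974. The other 13 mice had at most 2.31 CPM of Ttr, and 3 of the 17 had 0 counts. Mouse 19554 was the highest of 17 for 6 of the 7 genes. It had 13.3 CPM of Kl, the membrane protein klotho, 21.3 of the chloride channel-like Clic6, 3.65 of the homeobox factor Otx2, 1.07 of the folate receptor Folr1 and 383 of Enpp2, the enzyme autotaxin.

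The next highest mice had 5.27 CPM of Kl, 14.9 of Clic6, 1.66 of Otx2, 0.560 of Folr1 and 269 of Enpp2. Enpp2, which oligodendrocytes also express, was well above the floor in each mouse, with medians of 215, 198 and 181 CPM in WT, APP/PS1 and APP/PS1/FTnKO mice. Aqp1, a water channel, went with the olfactory bulb rather than with Ttr: its highest levels were 4.75 CPM in 16975, 3.43 in 18944, 2.20 in 19619 and 1.81 in 19721, and 1.75 in 19554. Clic6 was among the lowest in the mice with little striatal RNA, at 2.68 CPM in 19720, 4.18 in 19718 and 4.50 in 16975. Ttr and Folr1 had r = 0.702 (permutation p = 0.0069, adjusted p = 0.014) and rho = 0.200 (p = 0.44, adjusted p = 0.52), and r was 0.371 without 19554 and 19053, so that this relation rested on these 2 mice. Within APP/PS1 and within APP/PS1/FTnKO mice r was 0.936 and -0.116.

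**Figure D3:**
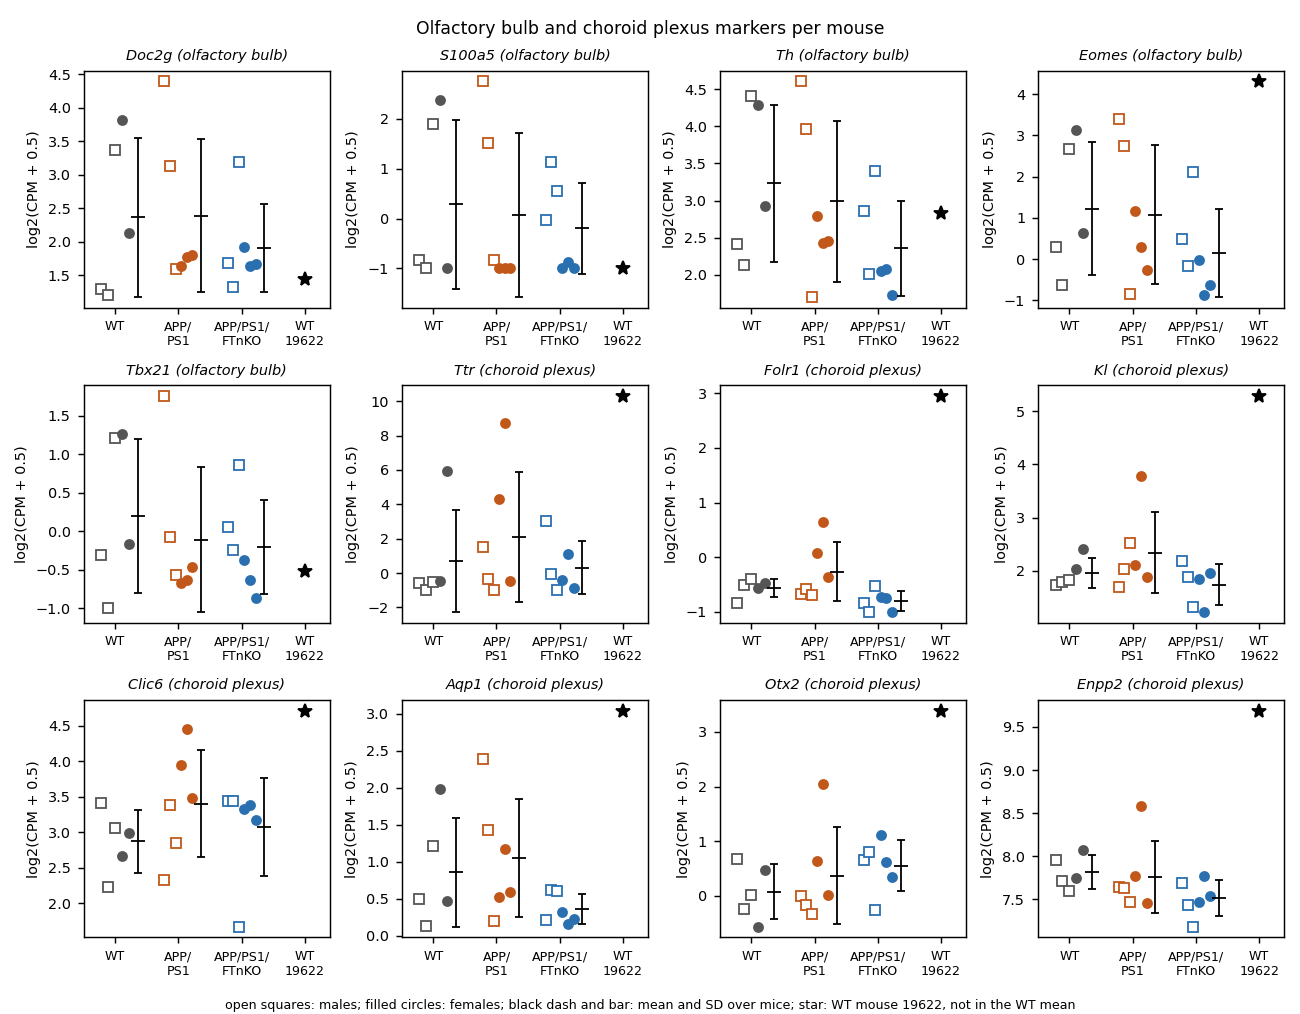
Levels of the 5 olfactory bulb and 7 choroid plexus markers in each mouse as log2(CPM + 0.5), by genotype, with open squares for males, filled circles for females, the mean and SD over mice, and a star for WT mouse 19622. Single mice stand above their groups, for Ttr up to 422 CPM in an APP/PS1 female, and the genotypes overlap.

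Thalamic markers overlapped between genotypes. Prkcd, a protein kinase C, had 12.6 to 22.02 CPM (median 16.2) in WT mice, 14.3 to 24.9 (median 21.4) in APP/PS1 mice and 16.8 to 25.9 (median 22.7) in APP/PS1/FTnKO mice. Ntng1, the netrin-G1 of thalamocortical axons, had 19.4 to 26.9 (median 22.2), 15.2 to 23.4 (median 19.2) and 14.2 to 20.5 CPM (median 18.5). The Wnt-pathway transcription factor Tcf7l2 had 4.23 to 11.99 CPM in all, with its highest value in 16974. Prkcd and Tcf7l2 had r = 0.519 and rho = 0.532 (permutation p = 0.032 and 0.03, adjusted p = 0.047 and 0.089), and r was 0.302 without the 2 mice farthest from the median of Prkcd, 0.630 within APP/PS1 and 0.212 within APP/PS1/FTnKO mice. This call was lost without those 2 mice (adjusted permutation p = 0.33), with RLE scaling (0.055) and on deviations from the genotype means (0.12).

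Genes typical of cerebellar granule and Purkinje cells were at or near the floor in the 17 mice. Gabra6, the α6 subunit of the GABA-A receptor of granule cells, had 0 counts in 13 mice and at most 0.187 CPM. Pcp2, a Purkinje cell gene, had 0 counts in 8 mice and at most 0.622 CPM, and Cbln3, a granule cell cerebellin, had 0.0516 to 0.995 CPM. The homeobox gene En2 had 0.249 to 1.22 CPM. The other 4 genes of the list are also used by forebrain cells and were higher, with Cbln1 at 3.49 to 9.70 CPM, the zinc finger genes Zic1 and Zic2 at 17.3 to 43.1 and 8.09 to 16.02, and the calcium buffer calbindin, Calb1, at 82.0 to 135. Calb1 had the smallest coefficient of variation of the 36 genes over the 17 mice, 10.9%, against 26.1% for Zic1. Gabra6 and Cbln3 had r = 0.482 and rho = 0.468 (permutation p = 0.05 and 0.06, adjusted p = 0.06 and 0.09), and 0.207 and 0.0845 without 19553 and 16974. Their r was 0.567 within APP/PS1 and 0.510 within APP/PS1/FTnKO mice.

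The dentate gyrus markers Neurod1 and Prox1, transcription factors of granule neurons, had 4.38 to 8.79 and 12.1 to 18.7 CPM. The pallial markers, which check the label of the tissue, were present in each of the 17 mice. Emx1, a homeobox gene of the developing and adult cortex, had 9.22 to 11.3 CPM (median 9.61) in WT mice, 5.92 to 11.8 (median 7.92) in APP/PS1 mice and 7.19 to 11.6 (median 8.35) in APP/PS1/FTnKO mice. Neurod6, a basic helix-loop-helix factor of cortical projection neurons, had 48.4 to 108 CPM (median 58.3), 42.7 to 84.9 (median 54.2) and 38.2 to 77.4 (median 64.1). Again all 3 genotypes overlapped.

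None of the 36 genes had groups that did not overlap in any of the 3 genotype comparisons, where 2.43% (APP/PS1 against WT), 0.965% (APP/PS1/FTnKO against APP/PS1) and 5.56% (APP/PS1/FTnKO against WT) of the 17414 tested genes did, so that 0 of 36 is close to this background. Of them 32 passed the filter on low counts and were tested together with all other genes, 17414 in all, by edgeR's quasi-likelihood test with sex as a further term, and 4 (Tbx21, Folr1, Gabra6 and Pcp2) did not pass. Between APP/PS1 and WT mice 0 of the 32 were called at a false discovery rate (FDR) below 0.05, where 1.50% of all genes were called. For APP/PS1/FTnKO against APP/PS1 0 were called (0.327% of all genes), and for APP/PS1/FTnKO against WT 0 were called (3.87% of all genes). With so few genes called in all, 0 of 32 is close to that background. The counts at an unadjusted p below 0.05 were 0, 3 and 3, or 0%, 9.38% and 9.38%, beside 14%, 11.5% and 22.1% of all genes, and limma-voom and DESeq2 also called 0 in each comparison. With all 18 mice edgeR called 0 in each comparison as well, and with RIN in the fit it called 1, Ttr, for APP/PS1/FTnKO against WT. Without RIN Ttr had a log2 fold change of -2.19 there and was not called, and its value with RIN is not given here.

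The striatal genes lay close to no difference between genotypes. For APP/PS1/FTnKO against APP/PS1 mice Drd1 had a log2 fold change of -0.09 (95% interval -0.53 to 0.36, edgeR FDR = 0.919), and the 9 striatal genes lay between -0.20 and 0.01, with a median of -0.11. For APP/PS1 against WT mice the 9 lay between -0.04 and 0.22 (median 0.05) and for APP/PS1/FTnKO against WT mice between -0.10 and 0.06 (median -0.03). The medians over all genes tested were -0.002, -0.002 and 0.005. The 95% intervals of Drd1 in these last comparisons, -0.43 to 0.51 and -0.51 to 0.43, allow differences of that size, so that smaller differences in striatal RNA could not be detected.

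The lowest p-values belonged to choroid plexus, olfactory bulb and thalamic genes, and none survived adjustment. In APP/PS1/FTnKO versus APP/PS1, Ttr had a log2 fold change of -4.32 (SE 2.02, edgeR FDR = 0.426), Kl -0.83 (SE 0.32, FDR = 0.324) and Aqp1 -1.22 (SE 0.48, FDR = 0.325). These rested on single mice: without 19554 Ttr had -0.38 and Kl -0.36, without 16974 Ttr had -7.41, and without 16975 Aqp1 had -0.72. With RIN in the fit Ttr had 0.47. Relative to WT, in APP/PS1/FTnKO mice Th had -1.19 (SE 0.52, edgeR FDR = 0.185), Enpp2 -0.34 (SE 0.15, FDR = 0.21) and Ntng1 -0.34 (SE 0.12, FDR = 0.112). Without the WT mouse 18944, in which Th and Ntng1 were near or at their highest, Th had -0.67 and Ntng1 -0.24. For the other olfactory bulb genes the same comparison gave -0.83 for Doc2g, -2.28 for S100a5 and -2.13 for Eomes with SEs of 0.62, 1.37 and 1.05, so the spread between mice was too wide for a call. All 4 olfactory bulb members tested were on the negative side in each genotype comparison, with medians of -0.39 for APP/PS1 against WT, -1.08 in APP/PS1/FTnKO versus APP/PS1 and -1.66 for APP/PS1/FTnKO against WT. The 8 further olfactory bulb genes tested had medians of -0.14, -0.54 and -0.69, with 6, 8 and 8 of them negative. The comparisons share mice, and the members were highest in the APP/PS1 male 16975, with the WT mice 18944 and 19721 among the highest 5 for each.

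For the 4 genes below the filter, two-sided exact permutation tests of the mean log2(CPM + 0.5) over the mice gave 0 calls in 12 tests adjusted together. The smallest p was 0.0195 (adjusted p = 0.234), for Folr1 in APP/PS1/FTnKO (mean 0.0761 CPM) against APP/PS1 mice (mean 0.387 CPM), where 19554 and 19553 held the highest values. No genotype difference of any of the 32 genes was called as differing between females and males (interaction term in edgeR, 4, 3 and 2 with an unadjusted p below 0.05), nor was that of any of the 17414 genes. The share of all genes at that unadjusted cut was not taken, so that nothing is read from these counts.

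**Figure D4:**
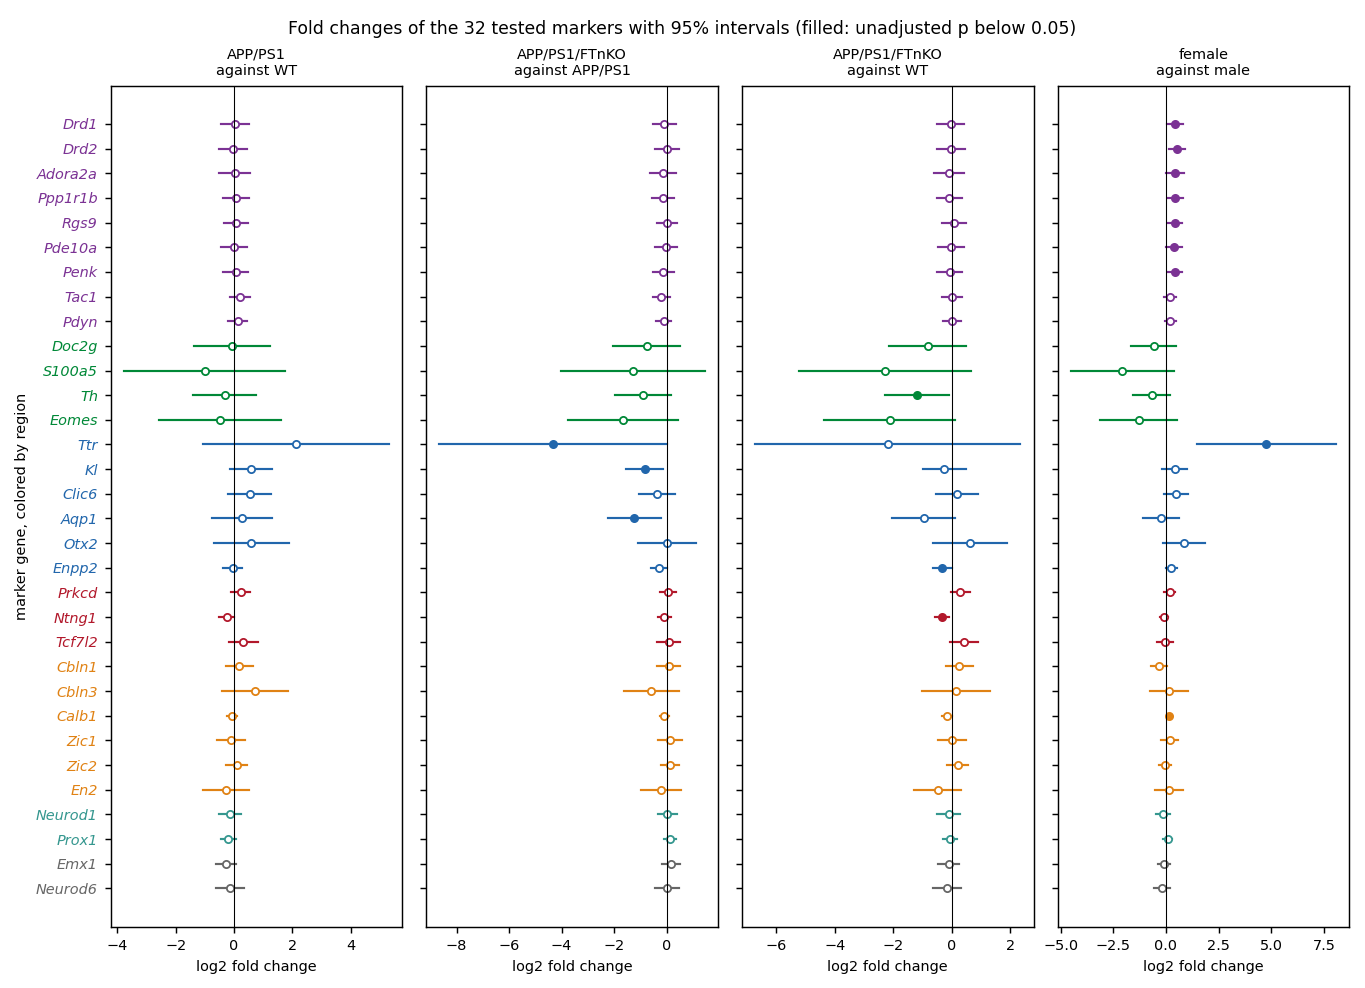
Log2 fold changes of the 32 tested marker genes with 95% intervals from edgeR in the 3 genotype comparisons and between the sexes, colored by region, with filled points for an unadjusted p below 0.05. The striatal points lie near 0 between genotypes and to the right of 0 between females and males, and none of the points passed an FDR of 0.05.

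Between the sexes, the striatal genes were on one side. Drd2 had 62.7 to 95.7 CPM (median 70.8) in the 8 females and 30.8 to 74.3 (median 59.2) in the 9 males, a log2 fold change of 0.53 (SE 0.18, edgeR FDR = 0.575). Drd1 had 67.1 to 111 CPM (median 86.1) in females and 32.8 to 88.5 (median 67.5) in males, a log2 fold change of 0.42 (SE 0.18, edgeR FDR = 0.665). In both genes the sexes overlapped, and the 3 lowest mice, 16975, 19720 and 19718, were males of 3 different genotypes. Of the 9 striatal genes 7 had p below 0.05 and 9 had a positive log2 fold change, from 0.19 to 0.53, but these genes moved together and are not independent. Over all regions 9 of 32 genes had p below 0.05 (28.1%, beside 6.7% of all genes), each higher in females: Drd1, Drd2, Adora2a, Ppp1r1b, Rgs9, Pde10a, Penk, Ttr and Calb1. None was called in the fit described, with 0.0689% of all genes called. For Ttr the log2 fold change was 4.77 (SE 1.55, edgeR FDR = 0.575), and 2.71 without 19554. It was called with RIN in the fit (9.56, edgeR FDR = 0.0101) and without the filter (4.73, edgeR FDR = 0.0399). RIN was 7.7 in 16975 but 8.6 and 8.7 in 19720 and 19718, and what part RNA integrity had in the low striatal values was not tested.

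WT mouse 19622 departed from the other mice in most of these genes. It lay above all 17 other mice for 21 of the 36 genes, namely the 7 choroid plexus, 3 thalamic, 8 cerebellar and 2 dentate gyrus genes and Eomes, and below all of them for 11, namely the 9 striatal and 2 pallial genes. Its total count of 19330958 and its RIN of 8.6 were within the ranges of the other mice. As a single mouse it has no replicate.

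By the median over a region, the cerebellar genes were raised most. Cbln3 had 843 CPM in 19622 and a median of 0.366 in the other 5 WT mice, Cbln1 had 480 against 4.33, and Zic1 561 against 36.7. Gabra6 had 390 CPM in 19622 and 0 counts in the other 5 WT mice, so its level was at least 11800-fold higher against a floor of 3 counts over those mice. Pcp2 had 168 CPM against 2 counts in all 5 mice, a ratio of 7630 (95% interval 2110 to 63000, counting error only). En2 was 59.9-fold, Zic2 12.4-fold and Calb1 4.33-fold the median of the other WT mice. The median log2 ratio of the 6 cerebellar genes with counts enough for a ratio was 4.92. Neurod1, which cerebellar granule cells also express, had 218 CPM against 7.01, and Prox1 63.7 against 16.3. Eomes, which unipolar brush cells of the cerebellum also express, had 19.3 CPM against 1.06, while Doc2g, S100a5, Th and Tbx21, the other olfactory bulb genes, were within the range of the other WT mice.

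Choroid plexus genes were raised next. Ttr had 1250 CPM against a median of 0.207 and a highest value of 61.4 in the other WT mice, Enpp2 823 against 215, Kl 38.5 against 3.05, Otx2 9.92 against 0.516 and Folr1 7.22 against 0.199. The median log2 ratio over the 7 genes was 3.66. Thalamic genes were raised less, Prkcd 2.80-fold, Tcf7l2 2.63-fold and Ntng1 1.48-fold.

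Striatal and pallial members went the other way. Emx1 had 0 counts in 19622 and 9.22 to 11.3 CPM in the other WT mice, a level at least 67.0-fold lower against a floor of 3 counts in that library. Neurod6 had 4.22 CPM against 58.3, Drd1 0.491 against 70.9, Adora2a 1.38 against 75.0 and Pdyn 3.54 against 67.4. Penk, Pde10a and Ppp1r1b were lowered least, with 107, 127 and 99.2 CPM against medians of 363, 407 and 408. The median log2 ratio of the 9 striatal genes was -3.02. Against its label, the library of 19622 therefore lacked the defining pallial marker Emx1 and held cerebellar markers that were at or near 0 in each other mouse. With all 18 mice in the fit 2 genes were called in the comparison of APP/PS1/FTnKO with APP/PS1 rather than 57, and 261 for APP/PS1/FTnKO against WT in place of 674. Leaving out other mice singly from the fit without 19622 also moved these counts, to 10 to 81 and 206 to 987.

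**Figure D5:**
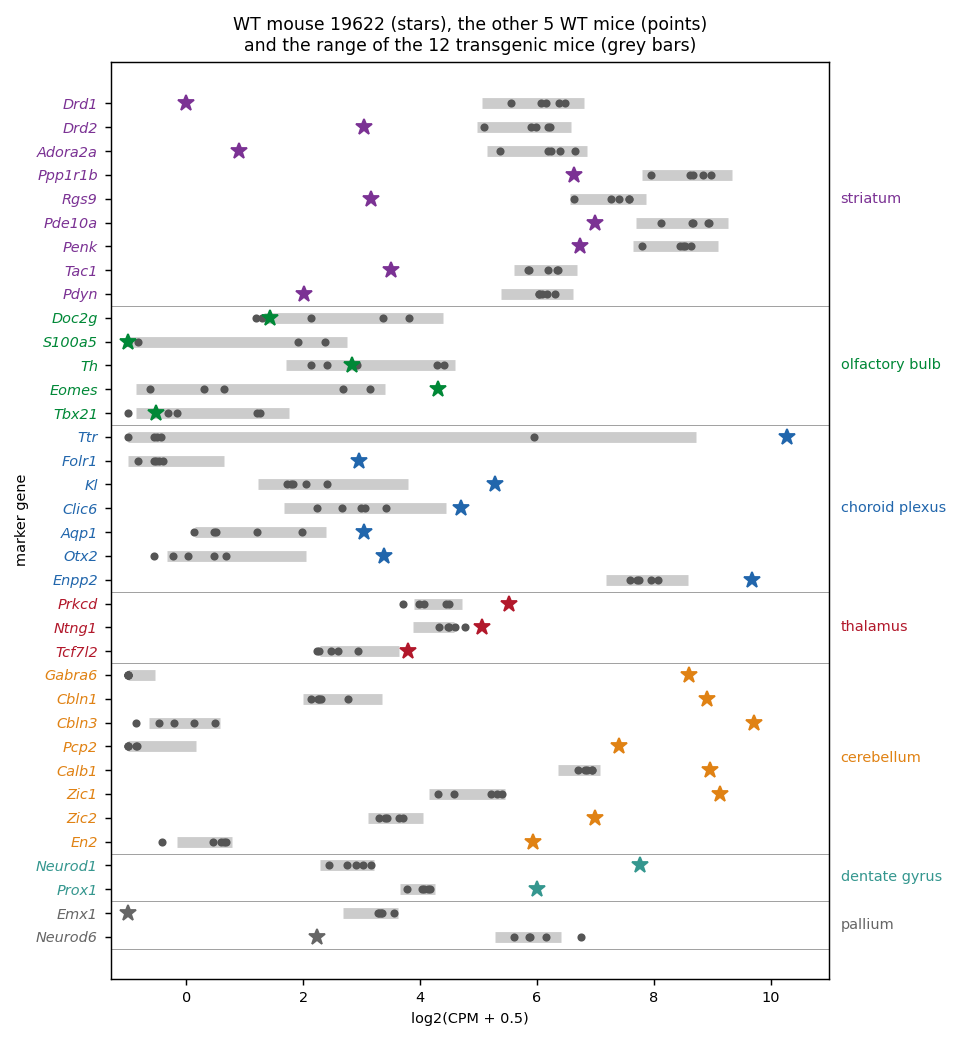
Levels of the 36 markers as log2(CPM + 0.5) in WT mouse 19622 (stars), the other 5 WT mice (points) and the range of the 12 transgenic mice (grey bars). The stars lie right of all other mice for the members of cerebellum, choroid plexus, thalamus and dentate gyrus, with Ttr at 1250 CPM. They lie left of them for striatum and pallium, with Emx1 at 0. The further dentate gyrus genes, not shown here, summed lower in 19622 than in all other mice.

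Further markers of each region, 71 genes of which 57 passed the filter, gave a second reading. Calb2 stands in both the olfactory bulb and the thalamic list. In the 17 mice the 12 further striatal genes summed to 1239 to 2646 CPM, led by Pde1b, a calmodulin-dependent phosphodiesterase (median 482), and Adcy5, the main adenylyl cyclase of the striatum (median 474), and to 427 in 19622. The 10 further olfactory bulb genes summed to 101 to 285 CPM, highest in 16975, with Kctd12 (median 87.8) and Cdhr1 (median 36.1) in the lead, and to 575 in 19622, where Kctd12 had 217, Cdhr1 1.62 and Calb2 316 CPM. The 12 further choroid plexus genes summed to 2.73 to 35.5 CPM, highest in 19554, led by the prolactin receptor Prlr (median 2.15) and the potassium channel Kcnj13 (median 1.01), and to 114 in 19622. In these 3 regions the sums were highest in the same mice as the sums over the members. The further cerebellar genes, led by Itpr1 (median 892, 2829 in 19622), summed to 699.7 to 1154 CPM in the 17 mice and 4707 in 19622. The further thalamic genes, led by Plekhg1 (median 18.9) and Calb2 (17.2, 316 in 19622), summed to 78.6 to 152 CPM and 558 in 19622. The further dentate genes, led by Npnt (19.7) and Trpc6 (12.1), summed to 39.9 to 51.6 CPM and to 21.1 in 19622. For the dentate gyrus this sum in 19622 thus lay below all 17 mice, while the members lay above them, so that the lists went opposite ways. The further pallial genes, led by the vesicular glutamate transporter Slc17a7 (median 971, 283 in 19622) and the transcription factor Bcl11b (122 and 5.16), summed to 971 to 1867 CPM and to 366 in 19622.

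Of the 57 tested, whose shares with p below 0.05 stand beside 14%, 11.5%, 22.1% and 6.7% of all genes, 0 were called between APP/PS1 and WT mice (1 with p below 0.05, 1.75%), 0 in APP/PS1/FTnKO versus APP/PS1 (7, 12.3%) and 0 between the sexes (17, 29.8%). For APP/PS1/FTnKO against WT 2 were called (9 with p below 0.05, 15.8%), near the background of 3.87% of all genes, both lower: Slc17a7 with a log2 fold change of -0.46 (SE 0.12, edgeR FDR = 0.0396) and Kctd12, an auxiliary subunit of GABA-B receptors, with -0.28 (SE 0.08, FDR = 0.0499). With the olfactory bulb level as a further term, a fit added once the counts were known, Slc17a7 had -0.48 (FDR = 0.0296) and Kctd12 -0.21 (FDR = 0.0284), and with the choroid plexus level Kctd12 was no longer called (-0.28, FDR = 0.0515). By region, the 8 further pallial genes all had negative log2 fold changes in this comparison (median -0.18, 4 of 8 or 50% with p below 0.05), and so did the 8 further olfactory bulb genes tested (median -0.69, 3 of 8 or 37.5%), where 8480 of the 17414 genes were negative. Genes of a region moved together, so that these counts are not of independent genes.

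To describe which genes moved with regional content, the mean log2 level of the members of a region was put into the same edgeR fit as a further term, a fit that was added once the counts were known. With the striatal level 305 of 17405 other genes had a slope at an FDR below 0.05 (1.75% of them), 245 rising and 60 falling. All 12 of the 12 further striatal genes rose. Of the genes below, those that are not members were named after their values were seen. Clic6 rose with a slope of 1.72 log2 units per unit (FDR = 2.04e-05) and Prlr with 3.54 (FDR = 0.00651), both choroid plexus genes by list, Bcl11b rose with 0.41 (FDR = 0.00292) and Lhx2, a cortical transcription factor, fell with -0.43 (FDR = 0.015). The slopes of Emx1 and Neurod6 were -0.56 (FDR = 0.103) and -0.16 (FDR = 0.856). Without 19720 158 genes had a slope, and 186 without 18973, so that the count depended on these mice, while the other mice left out singly gave 224 to 374.

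With the olfactory bulb level 69 of 17410 genes had a slope (0.396%), all of them rising. They included 6 of the 8 further olfactory bulb genes tested: Omp, the olfactory marker protein (slope 1.68, FDR = 4.64e-06), Sp8 (0.94), Shisa3 (0.93), Calb2 (0.60), Nmb (0.40) and Kctd12 (0.10). Aqp1 rose with 0.74 (FDR = 0.000177), and none of the other choroid plexus genes did. Omp had 13.0, 10.95, 8.42 and 6.82 CPM in 16975, 18944, 19721 and 19619 and at most 1.83 in the other 13 mice. Without 16975 the count was 44. With the choroid plexus level 1 of 17408 genes had a slope (0.00574%), Tmem72, a membrane protein gene (slope 1.86, FDR = 0.00279). Without 19554 this count was 0, and without 16974, 19720, 16975, 19101, 19718 or 19053 it was 2 to 5, so that it rested on single mice.

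The same terms changed how many genes were called between genotypes. With the striatal level in the fit 326 genes were called between APP/PS1 and WT mice in place of 261, 128 in the comparison of APP/PS1/FTnKO with APP/PS1 rather than 57, with all 57 among them, and 866 for APP/PS1/FTnKO against WT in place of 674, with all 674 among them. With the olfactory bulb level these counts were 310, 56 and 1092, and with the choroid plexus level 174, 32 and 784. With all 3 levels they were 205, 85 and 1354, of which 177, 36 and 655 were among the genes called without them. Of the 36 genes, Calb1 was then called for APP/PS1/FTnKO against WT (log2 fold change -0.22, FDR = 0.0424 with the olfactory bulb level, -0.20 and FDR = 0.0442 with all 3). Enpp2 also passed the threshold with all 3 levels (-0.29, FDR = 0.0322), but its own level is part of the choroid plexus term, so that nothing is read from it. Between the sexes 10, 10, 9 and 9 genes were called in place of 12.

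Other tissue that a cut or perfusion could leave was low or varied by mouse. The 6 hypothalamic peptide genes summed to 0.697 to 63.4 CPM, with Pomc at 62.8 in 19619 and at most 7.35 in the other 16 mice, and Oxt at 15.1 in 16974, 8.83 in 19553 and 6.59 in 19101. Of the 8 midbrain and hindbrain genes 7 stayed below 1 CPM in all 17 mice and their sum was 0.505 to 2.63 CPM, while 19622 had 52.8 CPM, with 10.2 of Tph2 and 10.4 of Hoxa5. The 5 blood genes, hemoglobins and Alas2, summed to 2.67 CPM in 19554 and 1028 in the WT male 19101, and the 6 meningeal genes to 24.7 to 78.3. The lowest blood sum was in 19554 and the lowest meningeal sum in 19553, so that neither mouse was lowest for both. Oxt was high in 16974 and 19553, which were also among the 4 mice with the most Ttr, but 19101 had only 3 counts of Ttr. The mice with the most Ttr, 19554 and 19053, had 9 and 1 counts of Oxt. What part such tissue had in the genotype comparisons was not tested.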

How the data were processed

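RNA from the frontal cortex of 18 mice was sequenced by the authors as stranded poly(A) libraries. Per the labels and the methods, reads were trimmed (Trimmomatic 0.33), checked (FastQC 0.11.7), aligned to GRCm38 (HISAT2 2.1.0) and assigned to genes with featureCounts (version and strand setting not given in the sources used here). As deposited, the values are raw counts per gene, and 0 columns of samples were left unused. Groups follow the labels.

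Counts were filtered (filterByExpr, minimum count 10), scaled by TMM and tested with edgeR 4.0.16 in R 4.3.3 (quasi-likelihood, genotype plus sex, 17 mice without WT mouse 19622). The study fitted the same terms with DESeq2 and left out 1 WT mouse, which its methods do not name. P-values were adjusted by Benjamini-Hochberg over all 17414 genes with a threshold of 0.05. Levels are TMM-scaled CPM, computed here, and log2 levels used a pseudocount of 0.5. The scripts were tested on simulated data. Permutation tests used scipy 1.17.1 and were two-sided. limma 3.58.1 (voom), DESeq2 1.42.0, RLE scaling, no filter, a minimum count of 50, all 18 mice, only the 2 genotypes, no sex term, RIN as a covariate and leaving out each mouse were tried as alternatives. Floors and the interval of the ratio of Pcp2 cover counting error only, and PCR copies were not separated, while intervals of fold changes come from the edgeR fit and include the spread between mice.

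The members and lists were chosen with earlier results of these data known. The 36 members are named by rule, and of the further lists the 2 genes with the highest mean level, and any other gene was chosen after its values were seen. Some items are not reported here.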

Additional observations from a re-analysis of the deposited data

Results flagged for a closer look

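In each genotype group of 6 mice the highest and the lowest value of each marker was compared with the rest by Dixon's test, over 108 groups. 37 values lay far from the other mice of their group, 21 of them in WT mouse 19622 and 16 in transgenic mice. Mouse 19622 had been set apart for its distance in these same markers, so that its 21 values are a description and no test. Its place in the WT group can also hide other high WT values, such as Ttr at 61.4 CPM in 19053. The test was run on CPM without a log. Its chance rate of about 1 in 20 groups holds for normally distributed values. Whether the CPM of these genes were so distributed was not tested, so that the 37 values are not compared with a chance rate. Genes of 1 region move together, so that the values are not independent.

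In WT mouse 19622 (all values in CPM) these were low values of Tac1 (10.8), Pdyn (3.54) and Emx1 (0), and high values of the choroid plexus genes Ttr (1250), Folr1 (7.22), Kl (38.5), Clic6 (25.6), Otx2 (9.92) and Enpp2 (823). High values of the thalamic genes Prkcd (45.3) and Tcf7l2 (13.3) stood apart too, as did those of the cerebellar genes Gabra6 (390.2), Cbln1 (480), Cbln3 (843), Pcp2 (168), Calb1 (498), Zic1 (561), Zic2 (127.5) and En2 (60.2) and of the dentate gyrus genes Neurod1 (218) and Prox1 (63.7).

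The APP/PS1 female 19554 had 5 such values, all high: Ttr (422 CPM), Kl (13.3), Otx2 (3.65), Enpp2 (383) and Prox1 (17.8). The APP/PS1 male 16975 had 3, of Doc2g (20.5), Tbx21 (2.87) and Cbln1 (8.37). The APP/PS1/FTnKO male 16974 had 4, of Ttr (7.77), Tcf7l2 (11.99), Cbln1 (9.70) and Gabra6 (0.181, 3 counts). The APP/PS1/FTnKO male 19720 had high values of Doc2g (8.57) and Eomes (3.80) and low values of Adora2a (35.1) and Clic6 (2.68).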

How the results depend on the processing

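Of 799 values under alternatives, 717 kept their direction and side of the threshold or stayed within their spread. 1 of the 36 markers was called for APP/PS1/FTnKO against WT with RIN in the fit, and 1 between the sexes with RIN and 1 without the filter, each time Ttr, whose log2 difference between females and males was then 9.56 (FDR = 0.0101) and 4.73 (FDR = 0.0399). Leaving out any mouse left the number of called markers at 0. With RIN the difference of Ttr for APP/PS1/FTnKO against APP/PS1 was 0.47. The difference of Drd1 for APP/PS1/FTnKO against WT was 0.25 with all 18 mice and 0.01 without the sex term. Leaving out single mice gave -0.05 to 0.20 for Drd1 between APP/PS1 and WT, -0.23 to 0.02 between APP/PS1/FTnKO and APP/PS1 and -0.18 to 0.10 for APP/PS1/FTnKO against WT. The cause was not tested.

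Over all genes, the counts called between APP/PS1 and WT mice were 468 with DESeq2, 452 without the filter and 84 with RIN. For APP/PS1/FTnKO against APP/PS1 they were 253 with DESeq2, 104 without the filter, 2 with all 18 mice, 5 with only the 2 genotypes and 261 with RIN. For APP/PS1/FTnKO against WT they were 1321 with DESeq2, 261 with all 18 mice and 388 with RIN, and between the sexes 31 with DESeq2 and 50 without the filter. Leaving out single mice gave 124 to 465, 10 to 81, 206 to 987 and 9 to 14.

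With all 18 mice 5266 genes had a slope on the striatal, 32 on the olfactory bulb and 4575 on the choroid plexus level, and limma-voom gave 4 for the choroid plexus. Leaving out single mice gave 158 to 374, 44 to 73 and 0 to 5. The median log2 ratio of the cerebellar genes in 19622 was 4.88 to 5.11 without single WT mice. With all 18 mice r was 0.986 for Gabra6 and Cbln3 and 0.868 for Drd1 and Neurod6. For Ttr and Folr1 r was 0.371 without the 2 mice farthest from the median. For Prkcd and Tcf7l2 it was 0.302 without such mice, 0.505 with RLE scaling and 0.408 on deviations from the genotype means, and the call was lost in each (adjusted permutation p = 0.33, 0.055 and 0.12). At this depth Gabra6 had at most 3 and Pcp2 at most 10 counts in the 17 mice, so that differences between genotypes were not detectable for them.

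No paired analysis was possible because the labels name each mouse by its own number and give no replicate number shared between genotypes.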
